A study of Mus musculus with 10 samples.

Results

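The genes described here are the 10 that set the first decision of the cell cycle: the D cyclins Ccnd1, Ccnd2 and Ccnd3, their kinases Cdk4 and Cdk6, the Cdk inhibitors Cdkn1b, Cdkn2a, Cdkn2c and Cdkn2d, and the retinoblastoma gene Rb1. They were chosen by name, and each was read from its brightest probe set among those annotated with that symbol alone, giving 10 of the 19938 genes in the series. All 10 passed the filter on low signal, a mean log2 level of 6.23. The lowest means were those of Ccnd1 (7.083) and Cdkn2a (7.288). The lymphoid marker Cd3e (7.027) and the stromal marker Col3a1 (7.38) passed at similar levels, so passing does not show that a gene was expressed. Ccnd1 lay below 7.25, a stricter filter run as an alternative. The series holds 10 arrays of 5 mouse acute myeloid leukaemia lines driven by the MLL-AF9 fusion, 1 array for each line and treatment. Each line came from its own primary leukaemia, taken from sick mice, so the line is the replicate. Lines 10949, 10950 and 10986 carried a floxed Zfx allele (Zfx fl/y, called fl lines), and lines 10977 and 10980 the wild-type allele (Zfx wt/y, called wt lines). Zfx is an X-linked zinc finger transcription factor. Both genotypes carried Cre-ER, a recombinase that works in the nucleus only when bound by 4-hydroxytamoxifen (4-OHT), and the fusion. Cells of each line grew for 72 h in medium with IL-3, IL-6 and stem cell factor, with 10 nM 4-OHT or with ethanol as vehicle, and the c-Kit-positive fraction was then sorted for RNA. The groups are thus fl vehicle (3 arrays), fl 4-OHT (3), wt vehicle (2) and wt 4-OHT (2), and the wt lines show what 4-OHT and active Cre do without a floxed allele.

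D cyclins are made in response to growth factors, bind Cdk4 or Cdk6 and so start the phosphorylation of the Rb1 protein, which otherwise holds E2F transcription factors silent. Once Rb1 lets go, E2F factors switch on cyclin E and the genes of DNA synthesis. The INK4 inhibitors, encoded by Cdkn2a, Cdkn2c and Cdkn2d, bind Cdk4 and Cdk6 themselves, while p27, the product of Cdkn1b, acts on complexes of cyclins with Cdk2 and is also carried by cyclin D complexes. In blood cells Ccnd2 and Ccnd3 are the D cyclins most used, and leukaemias with MLL fusions are known for their dependence on Cdk6.

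No gene of the 10 passed the test in any of 5 comparisons (limma, Benjamini-Hochberg adjusted p under 0.05 over all genes tested). Of 15662 genes tested, 0.153% passed for 4-OHT against vehicle in the fl lines (0.0511% up and 0.102% down). The share was 0% in the wt lines and 0% for the difference between those effects. It was 0.0192% for fl against wt lines under vehicle, all down, and 0.645% under 4-OHT (0.185% up and 0.46% down). At an unadjusted p under 0.05 the members numbered 1, 0, 1, 4 and 1 of 10 in the same order, against 12.3%, 0.147%, 5.82%, 9.83% and 10.8% of all genes. With 4-OHT, 4 of the 10 genes (Ccnd1, Ccnd2, Cdk4 and Cdk6) were higher in every fl line and 0 lower in every one, against 14.6% and 14.5% of all genes, 29.1% together. In both wt lines 1 (Cdk6) was higher and 4 (the inhibitors) were lower, against 24.3% and 24.5%, 48.8% together. Over all genes tested, the SE of a log2 change had a median of 0.12 for fl and 0.14 for wt lines (SE, standard error).

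One array, vehicle-treated 10986, was unlike the other 9: its mean correlation with the rest was 0.961, against 0.979 to 0.985. It held the highest level of 2 of the 10 genes (Ccnd3 and Cdkn2a) and the lowest of 3 (Cdk4, Cdkn2c and Rb1). The change with 4-OHT over all genes had an SD of 0.497 in that line and of 0.174 to 0.263 in the others. Of the markers of the sorted leukaemia cells, Kit, Ptprc, Mpo, Hoxa9, Meis1 and Cd33 all passed the level filter, with a mean log2 level per array between 10.97 and 11.48. Of 5 lymphoid markers on the array, 3 did not pass it. All 4 erythroid, all 5 mast cell and basophil and all 4 stromal and endothelial markers on the array passed. The mean levels of these lists per array lay between 6.53 and 7.69. Passing the filter thus does not tell cell types apart. The probe set of Zfx stood at 10.09, 9.63 and 9.24 with vehicle and at 10.07, 9.98 and 10.02 with 4-OHT in lines 10949, 10950 and 10986, and at 10.12 and 10.07 and then 9.90 and 10.04 in lines 10977 and 10980. Its lowest values were thus on the vehicle arrays of lines 10950 and 10986. The fl change was 0.37 (SE 0.16, limma adjusted p = 0.407), and fl minus wt lines under vehicle was -0.45 (SE 0.21, limma adjusted p = 0.515). The position of its probes relative to the deleted exons is unknown here, so it does not check the deletion, and fl 4-OHT means only that floxed cells received the drug.

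**Figure D1:**
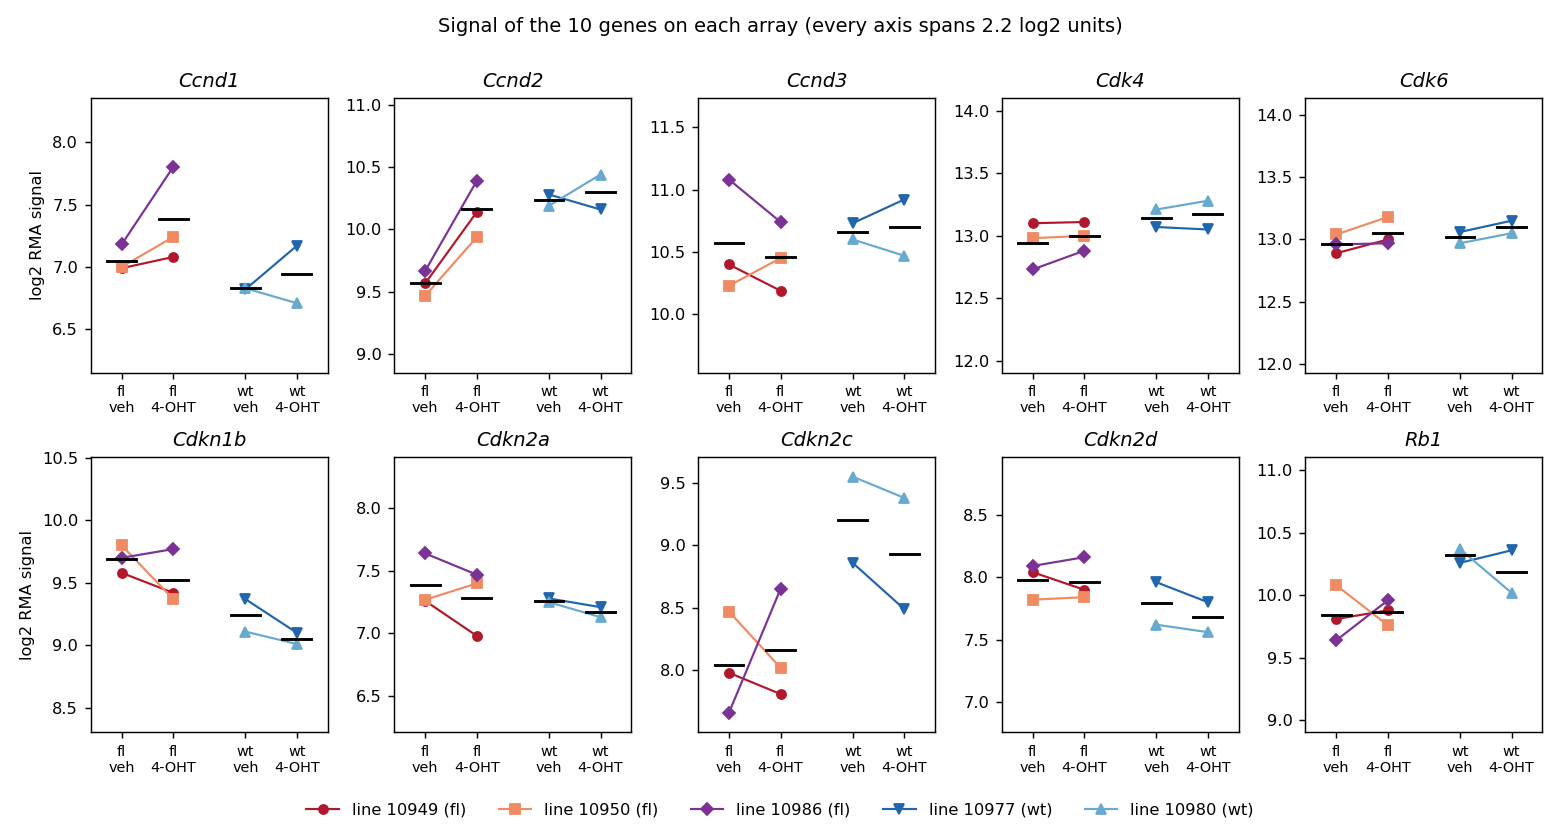
Log2 RMA signal (vertical axis) of each of the 10 genes on the 10 arrays, by genotype and treatment (veh, vehicle), with the vehicle and 4-OHT arrays of a line joined and group means as black bars. Fl vehicle arrays have Ccnd2 at 9.47 to 9.67, and every other array has it at 9.94 or above. Levels are to be compared within a gene, not between genes.

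Among the D cyclins, Ccnd2 had the largest 4-OHT change of the 10 genes in the fl lines. Its log2 level was 9.57, 9.47 and 9.67 with vehicle and 10.14, 9.94 and 10.39 with 4-OHT in lines 10949, 10950 and 10986. In the wt lines it was 10.28 and 10.19 with vehicle and 10.16 and 10.44 with 4-OHT, in lines 10977 and 10980. The 3 fl vehicle arrays were thus the lowest of the 10, and the fl 4-OHT arrays overlapped with the wt arrays. On the linear scale vehicle and 4-OHT signals were 760 and 1130 (line 10949), 709 and 985 (10950), and 812 and 1350 (10986). The fl change was 0.59 (SE 0.11, n = 3 line pairs), a 1.5-fold difference with an unadjusted 95% interval of 0.32 to 0.86, and did not pass over all genes (limma adjusted p = 0.114). The change was higher in 3 of 3 fl lines (0.57, 0.47 and 0.73), and 14.6% of all genes were higher with 4-OHT in every fl line. The wt lines went opposite ways, by -0.12 and 0.25, for a mean of 0.07 (SE 0.14, n = 2 line pairs). The difference of the effects between genotypes was 0.52 (SE 0.18, interval 0.09 to 0.95, limma adjusted p = 0.77). With the line as a random block the fl change was 0.59 (limma adjusted p = 0.075). It passed, at 0.57 (limma adjusted p = 0.0344), where that block was used and the vehicle array of line 10986 was also left out, and over all 14 alternatives it lay between 0.52 and 0.65 with adjusted p from 0.0344 to 0.394.

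Markers of maturing monocytes, and on average those of neutrophils, were higher with 4-OHT in the same fl lines as Ccnd2. Of 8 monocyte and macrophage markers tested, 7 were higher with 4-OHT in every fl line, and Ctss, the lysosomal protease cathepsin S, rose (1.4, SE 0.16, limma adjusted p = 0.046). The mean log2 level of the list ran from 9.02 to 9.51 on the fl vehicle arrays and from 9.61 to 10.39 on the fl 4-OHT arrays, against 9.72 to 9.88 and 9.40 to 10.05 on the wt vehicle and wt 4-OHT arrays. Of the 10 markers listed, 8 were measured by a probe set of their own, and all 8 passed the level filter. For the neutrophil list those ranges were 8.27 to 8.79 (fl vehicle), 8.74 to 9.40 (fl 4-OHT), 8.81 to 9.48 (wt vehicle) and 8.28 to 9.77 (wt 4-OHT). The fl 4-OHT arrays thus lay within the wt range. The mean change of this list was 0.61, 0.47 and 0.77 in lines 10949, 10950 and 10986, against 0.72, 0.59 and 1.24 for the monocyte list. Of its 9 genes tested, 8 had a fl change above 0, against 7830 of all 15662 genes, and Mmp8 was the 1 that passed. In every fl line 4 of the 9 were higher, against 14.6% of all genes. The part of these cells in the Ccnd2 values was not tested, and in bulk RNA fewer cells of a type cannot be told apart from less RNA per cell.

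Ccnd1, the D cyclin best known from epithelial tissue, had a level of 6.99, 7.0 and 7.18 on the fl vehicle arrays and 7.08, 7.24 and 7.80 on the fl 4-OHT arrays, in the order of lines above. On the wt arrays it was 6.82 and 6.83 with vehicle and 7.17 and 6.71 with 4-OHT. Its highest value was that of line 10986 with 4-OHT, and the other 9 arrays lay within 6.71 to 7.24. The fl change was 0.32 (SE 0.14, interval -0.02 to 0.67, limma adjusted p = 0.443) and the wt change 0.11 (SE 0.18). By line the change was 0.10, 0.24 and 0.63 (fl), then 0.34 and -0.12 (wt). Without line 10986 the fl change was 0.17. The mean change of the monocyte list in the same 5 lines was 0.72, 0.59, 1.24, 0.33 and -0.47. It was 0.61, 0.47, 0.77, 0.29 and -0.53 for the neutrophil list. For the markers of the sorted leukaemia cells it was 0.10, 0.13, 0.20, 0.10 and -0.22. In Ccnd1 and in each of these lists the largest rise was in line 10986 and only line 10980 went down. That pattern is thus not particular to monocyte markers, and the remaining lines were ordered otherwise. Line 10949 changed by 0.10 for Ccnd1 and by 0.72 for the monocyte list. The part of maturing cells in the Ccnd1 values was not tested either.

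Ccnd3 had no common direction. It stood at 10.40, 10.23 and 11.08 on the fl vehicle arrays and at 10.19, 10.45 and 10.74 on the fl 4-OHT arrays, and at 10.73 and 10.60 and then 10.92 and 10.47 on the wt vehicle and wt 4-OHT arrays. The groups overlapped throughout, and the spread within fl vehicle (SD 0.45, n = 3) was larger than any difference between group means. The fl change of -0.11 (SE 0.14, interval -0.44 to 0.22, limma adjusted p = 0.901) was 0.00 without line 10986 and 0.07 without its vehicle array and with a random block.

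Cdk4 and Cdk6, the kinases that D cyclins activate, were the steadiest of the 10 genes. Cdk4 lay between 12.73 and 13.11 on the 6 fl arrays and between 13.05 and 13.28 on the 4 wt arrays. Its lowest value was on the vehicle array of line 10986. The fl change was 0.06 (SE 0.09, interval -0.16 to 0.28) and the wt change 0.03 (SE 0.11, interval -0.24 to 0.30), and changes by line ran from -0.02 to 0.14. Cdk6 lay between 12.89 and 13.18 on all 10 arrays. Its change was 0.09 in both genotypes (SE 0.09 in fl and 0.11 in wt lines), upward in 5 of 5 lines, by 0.01 to 0.14. The unadjusted 95% interval for the fl lines was 0.915-fold to 1.24-fold, from 3 line pairs.

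The promoter of Cdk4, a textbook target of Myc, is shown because it carries several copies of the E-box CACGTG, the palindrome that Myc and related factors bind, marked in capitals. It is the stretch before the start site on the plus strand at chr10:127063285-127063534 (RefSeq, GRCm38.p6), written 5′ to 3′.
Cdk4: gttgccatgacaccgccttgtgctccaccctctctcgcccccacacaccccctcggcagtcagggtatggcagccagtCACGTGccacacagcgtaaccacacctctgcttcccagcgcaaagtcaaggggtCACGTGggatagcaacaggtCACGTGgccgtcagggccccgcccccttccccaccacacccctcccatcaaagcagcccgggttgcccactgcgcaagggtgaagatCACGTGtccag
It holds 4 matches to CACGTG. Of 32851 RefSeq promoters of the same length, 250 bases, 6.02% hold at least 1 match and 7 hold at least 4. Myc, whose own level was 12.22 and 12.24 on the vehicle arrays of lines 10950 and 10986 and 11.77 in line 10949, changed with 4-OHT by -0.27, -0.31 and -0.86 in lines 10949, 10950 and 10986 and by -0.12 and 0.54 in lines 10977 and 10980. The fl change of Myc did not pass (-0.48, SE 0.17, limma adjusted p = 0.318), while Cdk4 moved by 0.01, 0.02 and 0.14 in the fl lines. A match is a description of the letters and no evidence of binding in these cells. The RefSeq table matched 7 of the 10 genes, with 10 promoters, and none is shown for Ccnd1, Ccnd2 and Rb1. The core motif reported for Zfx, AGGCCT, searched on both strands, was in 8.7% of all promoters and in none of those 10 windows, which says only that these letters are not in them.

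**Figure D2:**
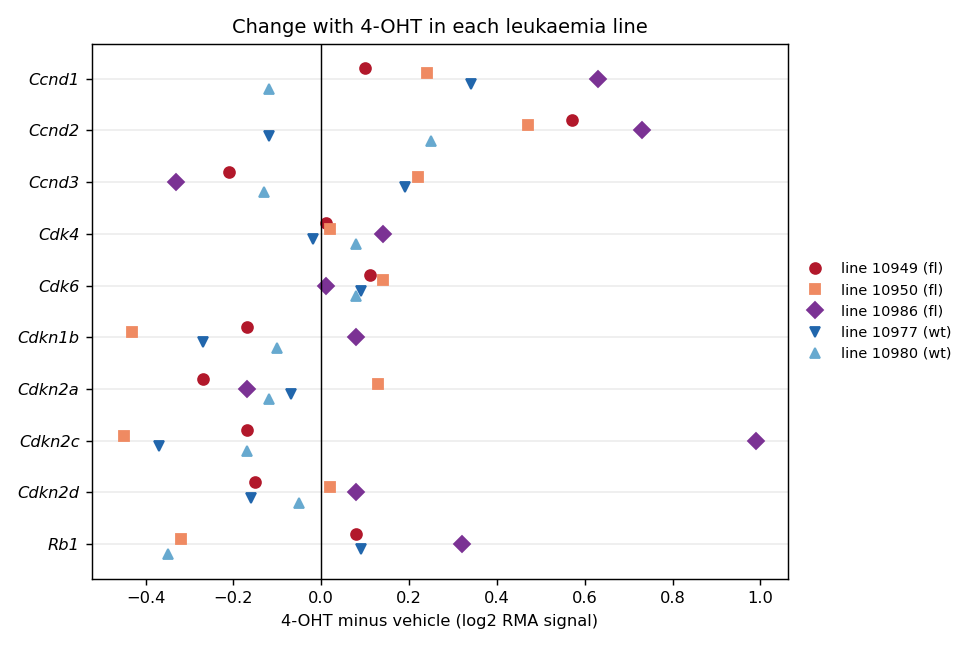
Change with 4-OHT in each line (horizontal axis, log2 RMA signal, 4-OHT minus vehicle) for the 10 genes, with 1 symbol per line. Ccnd2 lies at 0.47 to 0.73 in the fl lines and at -0.12 and 0.25 in the wt lines, Cdk4 and Cdk6 lie near 0, and Cdkn2c in line 10986 (0.99) is the largest change.

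Among the INK4 inhibitors, Cdkn2c, which encodes p18 and restrains the division of blood stem cells, varied most between lines. Its log2 level was 7.98, 8.47 and 7.66 on the fl vehicle arrays and 7.81, 8.02 and 8.65 on the fl 4-OHT arrays. In wt lines 10977 and 10980 it was 8.86 and 9.55 with vehicle and 8.49 and 9.38 with 4-OHT. All fl vehicle arrays lay below both wt vehicle arrays, and line 10986 with 4-OHT passed the lower wt 4-OHT array. With vehicle the fl lines differed from the wt lines by -1.17 (SE 0.37, interval -2.0 to -0.33, n = 3 against 2 lines, limma adjusted p = 0.419), or 0.446-fold, and with 4-OHT by -0.77 (SE 0.37, adjusted p = 0.523). With 4-OHT, Cdkn2c was lower in 4 of 5 lines, by -0.17, -0.45, -0.37 and -0.17 in lines 10949, 10950, 10977 and 10980, and higher by 0.99 in line 10986, whose vehicle array was unlike the rest. Line 10986 set the sign of the fl mean, which was 0.12 (SE 0.26, limma adjusted p = 0.968) with it and -0.31 without it.

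Cdkn2a encodes 2 unrelated proteins from separate first exons, p16 of the INK4 family and Arf, which shields p53 from Mdm2. Its probe set is tied to 2 RefSeq transcripts, so the signal, which was low, is that of the locus and does not tell p16 from Arf. The 2 promoters are shown because 1 probe set stands for both. They lie on the minus strand (RefSeq, GRCm38.p6) and are written 5′ to 3′. Capitals mark TTTNGCGC, a pattern like the E2F motif in which N is any base, searched on both strands. Other forms of that motif were not searched. The upstream one, at chr4:89294620-89294869, belongs to the Arf transcript and the other, at chr4:89282193-89282442, to p16.
Cdkn2a upstream: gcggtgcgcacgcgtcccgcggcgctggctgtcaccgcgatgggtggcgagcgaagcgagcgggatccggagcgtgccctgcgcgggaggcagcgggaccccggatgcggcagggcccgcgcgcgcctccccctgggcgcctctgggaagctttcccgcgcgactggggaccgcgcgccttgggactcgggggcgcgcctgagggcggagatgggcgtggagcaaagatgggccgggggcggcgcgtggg
Cdkn2a downstream: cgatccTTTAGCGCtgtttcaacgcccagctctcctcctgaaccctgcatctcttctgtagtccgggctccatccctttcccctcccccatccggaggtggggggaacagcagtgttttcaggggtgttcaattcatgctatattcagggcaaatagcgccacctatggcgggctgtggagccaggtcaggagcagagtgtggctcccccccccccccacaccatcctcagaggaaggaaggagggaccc
The downstream window holds 1 match to this pattern, with A at N, and the upstream window none, against 1.13% of all promoters with at least 1. The upstream window does hold tttcccgc, which is 1 base away from the pattern and was not counted. The count thus does not tell which of the 2 promoters has an E2F site. The log2 level of Cdkn2a was 7.26, 7.27 and 7.64 on the fl vehicle arrays and 6.98, 7.40 and 7.47 on the fl 4-OHT arrays. It was 7.28 and 7.25 on the wt vehicle arrays and 7.21 and 7.13 on the wt 4-OHT arrays. The fl vehicle, fl 4-OHT and wt vehicle ranges overlapped. The change was -0.10 for fl (SE 0.11, interval -0.37 to 0.16) and -0.09 for wt lines (SE 0.14). Bmi1, Cbx7, Rnf2 and Ezh2, polycomb genes known to silence this locus, did not pass in the fl lines. The largest of their changes was that of Rnf2, 1.04 in line 10986 against 0.12 and 0.04 in the other fl lines.

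Cdkn2d, which encodes p19 of the INK4 family, lay between 7.56 and 8.16 on all arrays. The fl change was -0.02 (SE 0.10, interval -0.25 to 0.21) and the wt change -0.11 (SE 0.12). The fl 4-OHT arrays, at 7.90, 7.84 and 8.16, lay just above the wt 4-OHT arrays, at 7.80 and 7.56, while the vehicle arrays overlapped.

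Cdkn1b, the gene of p27, was higher in the fl than in the wt lines under both treatments. Its level was 9.58, 9.80 and 9.70 on the fl vehicle arrays against 9.37 and 9.11 on the wt vehicle arrays, and 9.42, 9.37 and 9.77 against 9.10 and 9.01 with 4-OHT. The ranges did not overlap under either treatment. The difference was 0.45 with vehicle (SE 0.15, interval 0.12 to 0.78, limma adjusted p = 0.419) and 0.47 with 4-OHT (SE 0.15, interval 0.14 to 0.80, limma adjusted p = 0.233), about 1.37-fold and 1.38-fold. Over all alternatives it stayed positive, from 0.32 to 0.58 with vehicle and from 0.31 to 0.54 with 4-OHT, and passed under none. Of all genes, 4.28% were above the wt lines without overlap under both treatments, so 1 gene of 10 is no measure of the group. With 4-OHT the gene changed by -0.17 (SE 0.12) in fl and by -0.19 (SE 0.15) in wt lines, lower in 4 of 5 lines and higher by 0.08 in line 10986. The effects differed between genotypes by 0.01 (SE 0.19, interval -0.45 to 0.47). A dimmer probe set of Cdkn1b had fl means of 6.01 and 5.87 and wt means of 5.60 and 5.70, under vehicle and 4-OHT, below the level filter. With 4-OHT it changed by -0.09, -0.30 and -0.05 in the fl lines and by 0.13 and 0.09 in the wt lines, where the brighter probe set changed by -0.27 and -0.10, so the probe sets disagree on the wt direction.

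Rb1, the gene of the protein that D cyclin kinases phosphorylate, was lower in the fl than in the wt lines under both treatments. It stood at 9.81, 10.08 and 9.64 on the fl vehicle arrays against 10.26 and 10.37 on the wt vehicle arrays, and at 9.88, 9.76 and 9.96 against 10.36 and 10.02 with 4-OHT. The ranges did not overlap, though the gap with 4-OHT was small. The difference was -0.47 with vehicle (SE 0.16, interval -0.84 to -0.11, limma adjusted p = 0.454) and -0.32 with 4-OHT (SE 0.16, interval -0.68 to 0.04, limma adjusted p = 0.571). Of all genes, 5.27% were below the wt lines without overlap under both treatments. The fl change with 4-OHT was 0.02 (SE 0.15), made of 0.08, -0.32 and 0.32 in lines that moved apart, and the wt lines moved by 0.09 and -0.35.

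The comparison of genotypes sets lines against lines, so Zfx genotype and the leukaemia itself cannot be told apart with 3 fl and 2 wt lines. Of the 10 genes, 5 had ranges that did not overlap under vehicle (Ccnd1 and Cdkn1b above, Ccnd2, Cdkn2c and Rb1 below the wt lines), against 30.7% of all genes (18.6% above and 12.1% below). Under 4-OHT there were 3 (Cdkn1b and Cdkn2d above, Rb1 below), against 26.8% (12.6% above and 14.2% below). Ccnd2 differed by -0.67 with vehicle (SE 0.15, interval -1.0 to -0.34, limma adjusted p = 0.268) and by -0.14 with 4-OHT (SE 0.15, interval -0.47 to 0.19, limma adjusted p = 0.926). This comparison and the 4-OHT change of Ccnd2 share the 3 fl vehicle arrays, which were low. Its order of group means was fl vehicle at 9.57 ± 0.10 (SD, n = 3), fl 4-OHT at 10.16 ± 0.23 (n = 3), wt vehicle at 10.24 ± 0.06 (n = 2) and wt 4-OHT at 10.30 ± 0.20 (n = 2), and the upper 3 groups did not differ beyond their spread.

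**Figure D3:**
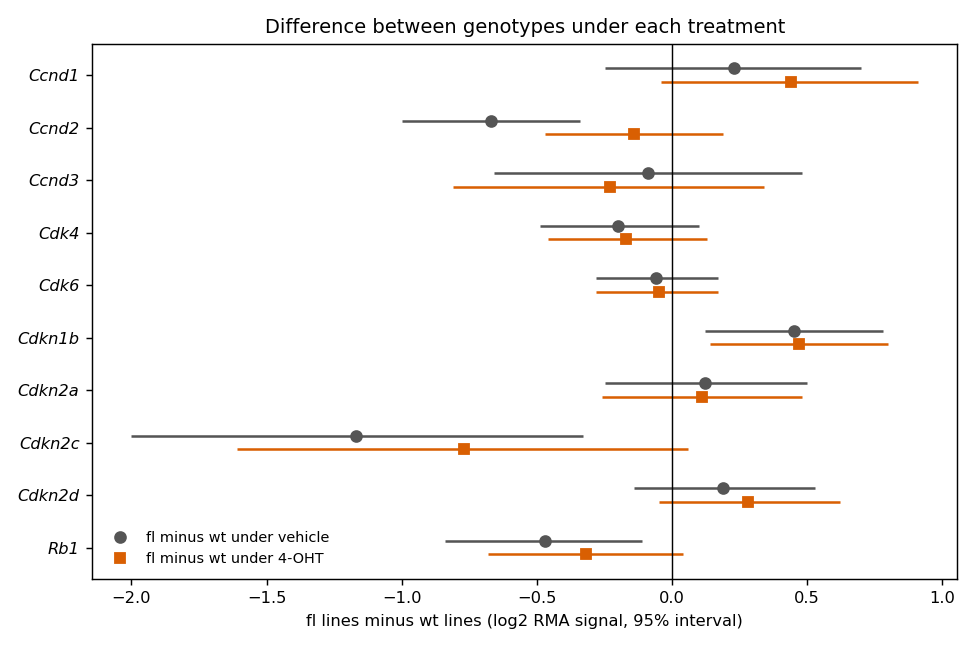
Fl lines minus wt lines (horizontal axis, log2 RMA signal) for the 10 genes under vehicle (circles) and 4-OHT (squares), with unadjusted 95% intervals as lines. The fit takes both arrays of a line as nearly separate, so the intervals may be too narrow. Cdkn1b lies above 0 under both treatments (0.45 and 0.47), with intervals that leave out 0. Rb1 and Cdkn2c lie below 0, but their intervals under 4-OHT reach 0.04 and 0.06. Ccnd2 lies below 0 under vehicle (-0.67) and nearer 0 under 4-OHT (-0.14).

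The other genes of the G1 network were read from 9 lists with 72 genes, of which 67 were tested. None rose or fell in the fl lines with 4-OHT by limma. At an unadjusted p under 0.05 there were 11 of 67, against 12.3% of all genes. Their median log2 change was -0.02 against -0.00 for all genes tested. Of the inhibitors outside the 10 genes, Cdkn2b (p15) and Cdkn1c (p57) changed by -0.06 and -0.04 (SE 0.10 each). Cdkn1a, the gene of p21, shares its probe set with another symbol and was not analysed here. The pocket protein genes Rbl2 and Rbl1, relatives of Rb1, changed by 0.29 (SE 0.17) and 0.13 (SE 0.18).

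Among E2F and DP factors the median change was -0.06, with 0 of 10 passing. Tfdp2, a DNA-binding partner of E2F, and E2f4, which represses in resting cells, both changed by -0.38 (SE 0.09 and 0.11, limma adjusted p = 0.159 and 0.239). Of cyclin E, cyclin A and Cdk2 genes, 0 of 5 passed. Ccne1, the cyclin E gene that acts after the D cyclins, changed by 0.35 (SE 0.09, limma adjusted p = 0.196) and the phosphatase gene Cdc25a by -0.20 (SE 0.10). Ccnh and Cdk7 of the Cdk-activating kinase stood at 0.36 (SE 0.26) and 0.30 (SE 0.24), from 1.26 and 1.11 in line 10986 and values between -0.19 and 0.01 in the other fl lines. Of 8 genes for turnover of D cyclins and p27, Ambra1, which targets D cyclins for degradation, changed by -0.26 (SE 0.09, limma adjusted p = 0.309) and Cul1 by -0.21 (SE 0.22). Of 10 upstream regulators the largest changes were those of Mdm2 (0.58, SE 0.22) and Myc (-0.48, SE 0.17).

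Genes that E2F factors switch on carry out DNA synthesis. For these S phase targets the median was 0.17, with 11 of 15 above 0 and none passing. Of all genes tested, 7830 of 15662 were above 0. The mean change of the targets by line was 0.08, -0.03 and 0.26 (fl), then -0.06 and 0.01 (wt). Tk1 changed by -0.39 (SE 0.11) and Pola1 by 0.30 (SE 0.20). Mitosis genes had a median of -0.12, with 12 of 12 below 0 in the mean of the fl lines and none passing. In every fl line 3 of them were lower and 0 higher, against 14.5% and 14.6% of all genes. The median in the wt lines was -0.07. The means by line were -0.17, -0.36 and 0.09 (fl), then -0.25 and 0.15 (wt). Mki67 and Kif23 both changed by -0.33 (SE 0.11 and 0.18). In the wt lines 0 of 67 network genes passed, and 0 had an unadjusted p under 0.05, against 0.147% of all genes.

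**Figure D4:**
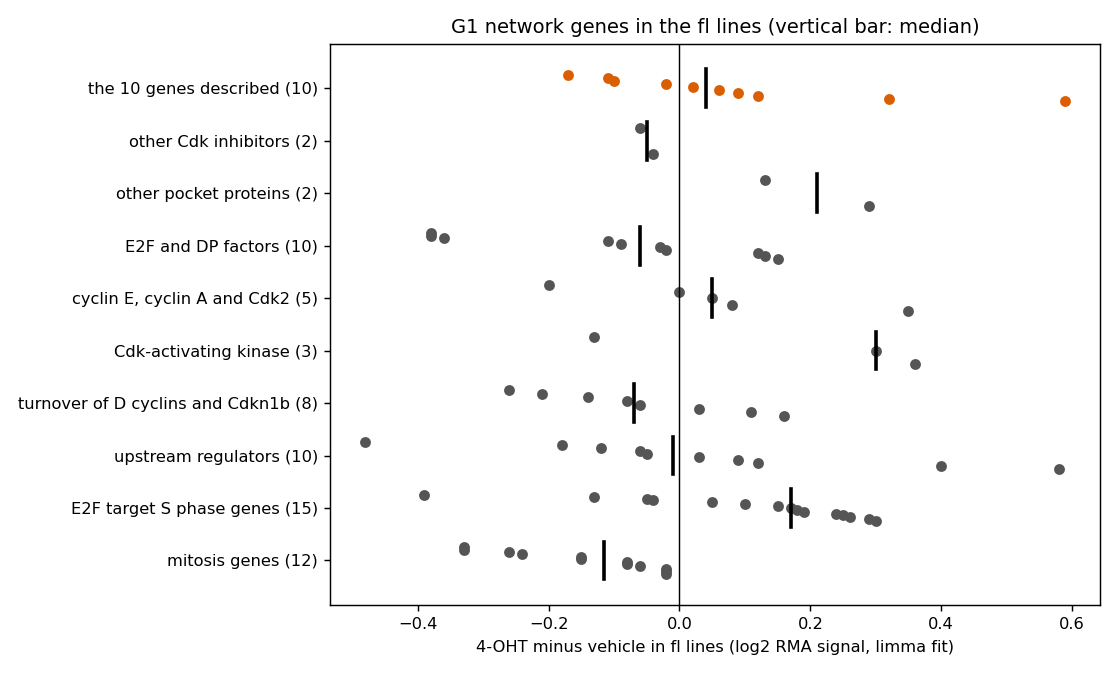
Log2 change with 4-OHT in the fl lines (horizontal axis) for the 10 genes described and for each gene tested of the 9 network lists, 1 point per gene, with the number of genes in brackets and a bar at the list's median. Ccnd2 (0.59) and Mdm2 (0.58) are the largest upward changes and Myc (-0.48) the largest downward one.

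Between genotypes, network genes with the largest differences under 4-OHT lay below the wt lines, and none of 67 passed by limma. At an unadjusted p under 0.05 there were 8 of 67, against 10.8% of all genes. Cdc25a, which removes inhibitory phosphates from Cdk2, differed by -0.58 (SE 0.11, limma adjusted p = 0.0704). Tfdp2 differed by -0.72 (SE 0.24) and E2f6, a repressor of the family, by -0.62 (SE 0.29). Under vehicle none of the 67 passed either. The largest difference there was that of Rnf2 (-0.76), with means of 9.60 in the fl and 10.36 in the wt lines. Mdm2 differed by -0.73 (SE 0.23, limma adjusted p = 0.419), E2f6 by -0.72 (SE 0.29) and Rbl2 by -0.51 (SE 0.19). The median over the 67 genes was -0.15 under vehicle and -0.10 under 4-OHT, against 0.03 and 0.02 for all genes tested.

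Likeness of pattern was taken as Pearson's r of log2 levels over the 10 arrays, which pair up within 5 lines and so are not independent, among 15661 genes for each member. The closest genes were Snx18 (0.97) and Tax1bp3 (0.95) for Ccnd2, S100a6 (0.98) and Adam8 (0.96) for Ccnd1, and Lrg1 (0.96) and Asb1 (0.94) for Ccnd3. They were Fv1 and Zkscan1 (0.98 each) for Cdk4 and Cntfr (0.92) and Ncmap (0.91) for Cdk6. For the inhibitors they were Jmjd1c (0.95) and A630089N07Rik (0.92) with Cdkn1b, Barx2 (0.96) and Ypel4 (0.94) with Cdkn2a, Gclc (0.97) and Prkar2b (0.96) with Cdkn2c, and 1600029O15Rik (0.95) and Selplg (0.94) with Cdkn2d. For Rb1 they were S100a11 and Slc22a4 (0.92 each). Each of these is the top of a search over 15661 genes, and how high such a search reaches without any link was not tested. Among the 10 genes themselves the highest r was that of Cdkn1b with Cdkn2d (0.78) and the lowest that of Cdk4 with Cdkn2a (-0.82). The vehicle array of line 10986 holds the lowest Cdk4 and the highest Cdkn2a level.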

How the data were processed

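RNA of 10 samples was hybridised to biotin-labelled 1-colour arrays. The deposited intensity values, linear by their range, were made by the authors with RMA, per the submitters' processing notes; no version is given. Log2 was taken here. Of 35556 probe sets, 21789 carry 1 symbol in the platform annotation, 1621 several, and 12146 are not listed; the 19938 genes were read from the brightest single-symbol probe set. Testing took the 15662 with a mean of at least 6.23, which is the 25th percentile over probe sets. Arrays have no read depth, and their number limits the precision.

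Groups came from the sample titles. The 4-OHT effects were fitted with limma 3.58.1 (R 4.3.3) on all arrays, with the line as a block and a 4-OHT term per genotype (3 residual degrees of freedom, 6.694 with the prior). Genotypes were compared as 4 group means, the line being a random block (statmod 1.5.0, correlation 0.165). All genes shared that low correlation, so the 2 arrays of a line counted almost as separate lines. The genotype intervals may therefore be too narrow. Tests were two-sided and moderated, with Benjamini-Hochberg adjustment over all genes; intervals are unadjusted. The block follows the series design, which cultured each line both ways; a line's 2 arrays deviated from their group means together at r = 0.78, 0.22 and -0.06 (lines 10949, 10950, 10986) and 0.43 in each wt line. Nothing says that the arrays are more than 1 culture each, so the spread is that between lines. The fit was tested on simulated data.

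Named genes were the 10 members, Zfx, the genes of each network list that passed (up to 4) or else at most the 2 with the largest change, and the 2 genes most alike in pattern per member; the polycomb genes and the marker genes named beside a result were picked after their values were seen. The members and lists were chosen with earlier results of these data known. Promoters and motif matches came from the RefSeq table of GRCm38.p6, as the 250 bases before each start. Alternatives changed the block, level filter, scale, prior, probe set rule and lines used.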

Additional observations from a re-analysis of the deposited data

How the results depend on the processing

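None of the 10 genes passed under the alternatives run, except Ccnd2 in the fl lines, which gave 1 gene past the threshold with a random block and without the vehicle array of line 10986 (0.57, limma adjusted p = 0.0344). That fit changes 2 choices at once for the 4-OHT effects, and the random block alone gave adjusted p = 0.075. Of the single genes' values under alternatives, 634 kept their direction and side of the threshold, 1 passed and 40 changed sign; the cause was not tested. The number of genes called over the whole array was unstable, which limits what a missed threshold says. In the fl lines it was 24, and 83 with the line as a random block, 8 with no level filter, 14 with the filter at the 50th percentile, 3 with arrays centred on their median (1 up, 2 down, against 8 and 16), 61 after quantile normalization (28 up, 33 down) and 469 with a random block and without that array, and from 0 (without 10949, 10950, 10977 or 10980) to 440 (without 10986) with 1 line left out. For the difference between the effects it was 0, and 1 with no replicate block or a random one, 21 with a random block and without that array and 0 to 20 with a line left out. Under vehicle the genotypes gave 3, and 0 with no filter, the stricter filter or quantile normalization, 6 without that array and 0 to 15 with a line left out. Under 4-OHT they gave 101, and 66 with centred arrays (10 up, 56 down, against 29 and 72), 167 without that array and 0 to 52 with a line left out. No other count moved by over 1.5 times, the fit with no replicate block included.

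Signs turned as follows. With a random block and without the vehicle array of line 10986 the fl changes were 0.07 for Ccnd3, -0.01 for Cdk4, -0.20 for Cdkn2c and -0.10 for Rb1, and the differences between effects 0.04 for Ccnd3, -0.04 for Cdk4, -0.05 for Cdkn1b and 0.07 for Cdkn2a. After quantile normalization the fl change of Rb1 was -0.02 and the differences were -0.01 for Cdk4, -0.02 for Cdk6 and -0.07 for Cdkn1b; with the mean of both probe sets the latter was -0.12. With 1 line left out in turn, the fl change ran from -0.27 to 0.00 for Ccnd3, -0.31 to 0.41 for Cdkn2c, -0.06 to 0.05 for Cdkn2d and -0.12 to 0.20 for Rb1. The wt change ran from -0.12 to 0.34 for Ccnd1, -0.12 to 0.25 for Ccnd2, -0.13 to 0.19 for Ccnd3, -0.02 to 0.08 for Cdk4 and -0.35 to 0.09 for Rb1. The difference between effects ran from -0.02 to 0.44 for Ccnd1, -0.31 to 0.02 for Ccnd3, -0.02 to 0.07 for Cdk4, -0.02 to 0.04 for Cdk6, -0.11 to 0.14 for Cdkn1b, -0.13 to 0.07 for Cdkn2a, -0.04 to 0.68 for Cdkn2c and -0.07 to 0.38 for Rb1. Fl minus wt ran from -0.35 to 0.08 for Ccnd3 and -0.00 to 0.19 for Cdkn2a under vehicle, and from -0.29 to 0.00 for Ccnd2 under 4-OHT.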
